A study of Oryza sativa Japonica Group with 38 samples.

Results

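The RAP lncRNAs with 3 or 4 exons are the rice long noncoding RNAs (lncRNAs) of the annotated list that carry a RAP-style locus identifier (beginning with OS) and whose longest listed transcript has 3 or 4 exons. There were 303 of them, 216 with 3 exons and 87 with 4, among 1873 RAP lncRNAs and 7231 loci listed in all. They were chosen by identifier and exon number alone, so no expression value decided membership.

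Oryza sativa japonica seedlings were raised for 2 weeks under days of 12 h at 28 °C alternating with nights of 12 h at 22 °C. They then met 1 of 5 stresses: cold at 4 °C, drought, heat at 50 °C, light of 50000 lux (high light) or NaCl at 300 mM (high salt). Untreated seedlings served as the control. Untreated roots, leaves and panicles were also sequenced; their labels give the same age, panicles included. Each of these 9 conditions gave nuclear total RNA, and whole-cell poly(A)-, poly(A)+ and small RNA. The 38 libraries appear as 36 FPKM columns (read fragments divided by exon length and by library size), 1 column per condition and fraction, with 2 drought libraries but 1 drought column for poly(A)- RNA, and likewise for poly(A)+ RNA; whether that column holds 1 library or both is not stated. No transgene or mutant was involved, and how many plants went into a library is not stated in any source used here.

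A lncRNA is a transcript without evident coding capacity. Many are made by RNA polymerase II like messenger RNAs, and are capped, spliced and given a poly(A) tail, while others lack the tail or stay in the nucleus. In plants, lncRNAs are known to take part in flowering time control, in phosphate homeostasis as decoys of a microRNA, and in the making of small interfering RNAs. No role is annotated for any of the loci named below in the sources used here, so they are described by identifier, position and level. Their sequences were not analysed here.

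The undisputed long RNA columns held 24.6 to 105 M (1e6) reads and the small RNA columns 39.7 to 85.8 M reads, recovered from the FPKM values themselves. In 4 columns (poly(A)+ of leaves and panicles, poly(A)- of panicles and nuclear RNA of panicles) the depth differed between the annotated and the XLOC list by at least 5.82%, so the heading of one list or the other is in doubt. These columns are called disputed and entered no comparison or count below unless named. Only lncRNAs are listed, so markers of tissues or cell types were not analysed here. In bulk RNA, fewer cells that make a transcript and less transcript per cell cannot be told apart. Every group is a single column, so stress and tissue values have a counting interval but lack a replicate error.

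The members' summed exon length had a median of 674 nt, against 631 nt over all RAP lncRNAs. It lay between 207 nt for OS02G0618301 (chromosome 2, 24573730 to 24575081, plus strand) and 2935 nt for OS12G0199200 (chromosome 12, 5165358 to 5168612, minus strand). The median span from first to last base was 1765 nt, of which 45.87% was exon at the median member, against a span of 988 nt over all RAP lncRNAs. The median summed exon length was 592 nt for RAP lncRNAs with 2 exons and 1270 nt for those with 5 or more. First exons had a median of 183 nt, inner exons of 140 nt and last exons of 212 nt. The 693 introns had a median of 221 nt and reached 11420 nt, and 97 members held an intron over 1000 nt. At the other end, 7 introns in 5 members were under 50 nt, down to 6 nt, so part of the exon count of those 5 rests on gaps that short. The loci lay on all 12 chromosomes, from 46 on chromosome 3 to 13 on chromosome 12, with 156 on the plus and 147 on the minus strand. Coordinates are as deposited, and the submitters' processing notes name the build IRGSP-1.0. By span, introns included, 4 members overlapped another listed locus, 3 of them on the opposite strand, and 8 pairs of members lay within 10 kb of each other.

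Most members were detected in whole-cell poly(A)+ RNA, and fewer in each other fraction. FPKM is scaled within each library, so these counts do not measure what part of a transcript carries a tail. At 1 FPKM or more in at least 1 undisputed column, 88 members (29%) were detected in nuclear RNA, 114 (37.6%) in poly(A)- RNA, 225 (74.3%) in poly(A)+ RNA and 5 (1.65%) in small RNA. Over the whole series, the shares were 15% in nuclear, 20.9% in poly(A)-, 52.6% in poly(A)+ and 18.9% in small RNA. The 225 members of poly(A)+ RNA included each member detected in another long fraction, 78 members stayed below 1 FPKM in all 23 undisputed long RNA columns, and 5 of these were listed at 0 throughout. In poly(A)+ RNA, 115 members passed 1 FPKM in all 7 undisputed columns, 96 in 2 to 6 of them and 14 in exactly 1.

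Detection in poly(A)+ RNA covered 72.7% of the members with 3 exons and 78.2% of those with 4, beside 51.6% of RAP lncRNAs with 1 exon, 62.4% with 2 and 77.6% with 5 or more. A member's median over the 7 columns was itself 2.42 FPKM at the median member, with quartiles of 0.398 and 8.26 FPKM, against 0.735 FPKM at the median RAP lncRNA. The 45 XLOC loci with 3 or 4 exons, assembled rather than annotated, were lower, with 0.237 FPKM at the median and 60.0% detected. These differences between groups of loci were not tested.

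**Figure D1:**
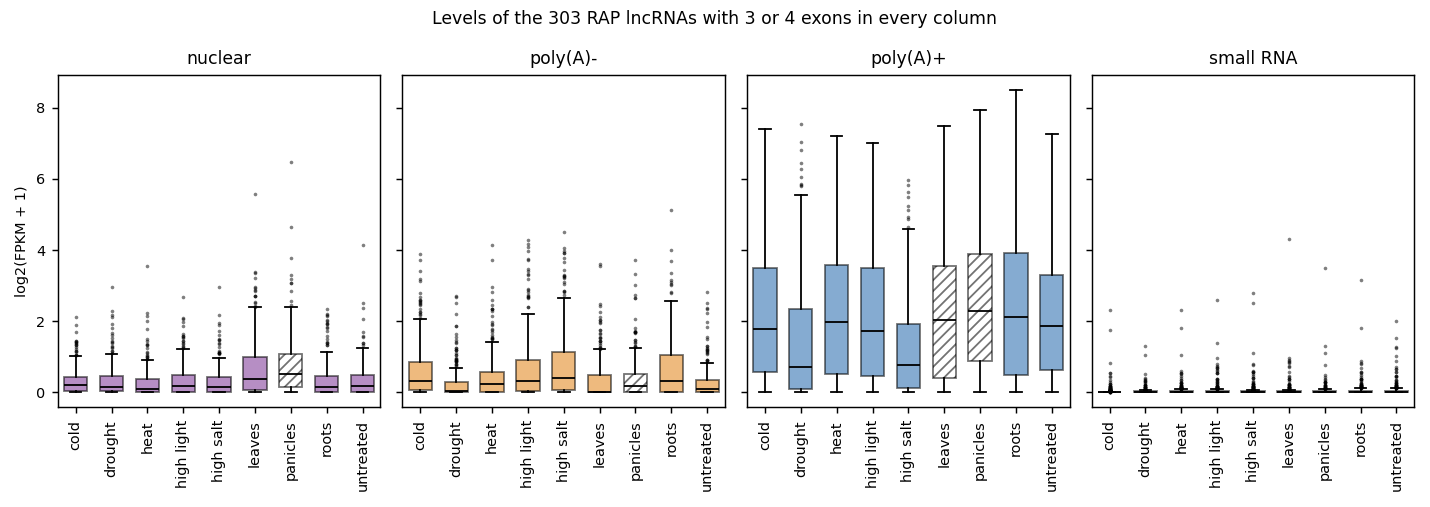
Levels of the 303 RAP lncRNAs with 3 or 4 exons as log2(FPKM + 1), 1 box per column, in nuclear, poly(A)-, poly(A)+ and small RNA. Boxes span the quartiles with the median as a line, whiskers reach 1.5 times that range, and hatched white boxes are the 4 disputed columns. Poly(A)+ boxes stand above the other fractions in every condition, and the drought and high salt boxes are the lowest among them.

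The authors' own classes were deposited in the same list as these FPKM values, so they may not be separate evidence. The authors listed 262 members (86.5%) as Poly(A)+, 34 (11.2%) as Bimorphic, 3 as Poly(A)- and 4 as low. By location they listed 276 (91.1%) as cytosol, 12 (3.96%) as nucleus, 6 as bimorphic and 9 as low, and 250 members were both Poly(A)+ and cytosol. Over the whole series, 53.7% of loci were listed as Poly(A)+ and 58.6% as cytosol. The shares were 72.9% and 78.2% over all RAP lncRNAs, and 93.5% for each class among those with 5 or more exons. The 12 members listed as nucleus were near the floor at their median. That median of their mean levels over the 7 tested conditions was 0.0116 FPKM in nuclear, 0.00889 in poly(A)- and 0.0431 in poly(A)+ RNA. Of the 12, 2 reached 1 FPKM in an undisputed nuclear column, and 3 had a higher mean in nuclear than in poly(A)+ RNA. Those 2 were OS05G0152366 and OS12G0227450, described below, which were not near the floor. The rule behind these classes is not stated in any source used here, and they may draw on the disputed columns.

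Poly(A)- against poly(A)+ RNA asked whether the transcripts carry a tail. The comparison used limma on log2(FPKM + 1) across all listed loci, with the 7 undisputed conditions (5 stresses, roots and untreated seedlings) as paired units. Of 303 members, 284 had a lower poly(A)- than poly(A)+ mean, 11 a higher mean and 8 equal means. The filter of 1 FPKM in at least 3 columns left 197 members, each of which met it in poly(A)+ columns alone. Counts among these 197 do not describe the other 106, and lower poly(A)- levels among the 197 are in part fixed by the filter. Of the 197, 169 were lower and 1 was higher at a limma adjusted p of 0.05 and 2-fold. Over all 2859 loci tested the calls were 74.5% lower and 4.2% higher. The members' median difference was -2.02, against -1.51 for all loci, both on the log2(FPKM + 1) scale. With no filter on low values these medians were -1.39 and -0.64. In that fit 169 of 295 members were lower and 1 higher, beside 2127 lower and 116 higher of 5533 loci. Since that shift of all loci moves with library scaling, the members were also set against each library's median: then 58 members were lower and 1 higher, beside 16.5% and 8.57% of all loci. P-values here set the mean fraction difference over the 7 conditions, each with 1 column per fraction, against its spread over conditions. That spread mixes condition effects with technical error, and nothing in the labels says that the libraries came from separate cultures. It was taken largely from other loci of like level, with 187 prior against 6 residual degrees of freedom in limma. SE and p therefore understate the variation of a locus whose own difference varied widely.

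Of the tested members, 85.9% of those with 3 exons and 85.5% of those with 4 were called lower in poly(A)- RNA. The corresponding shares were 69.6% for RAP lncRNAs with 1 exon, 76.0% with 2 and 92.4% with 5 or more. The difference varied by condition. Its median over the 197 members was -2.13 in cold, -1.54 in drought, -2.47 in heat, -2.20 in high light, -0.57 in high salt, -2.49 in roots and -2.61 in untreated seedlings. High salt stood nearest to 0, and 26 of the 197 members had more poly(A)- than poly(A)+ signal there, against at most 2 in any other tested condition. The same count over all tested loci is not given here, so the 26 are not shown to be particular to the members. All loci had the same order at its ends, with a median of -0.43 in high salt and -2.16 in untreated seedlings.

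**Figure D2:**
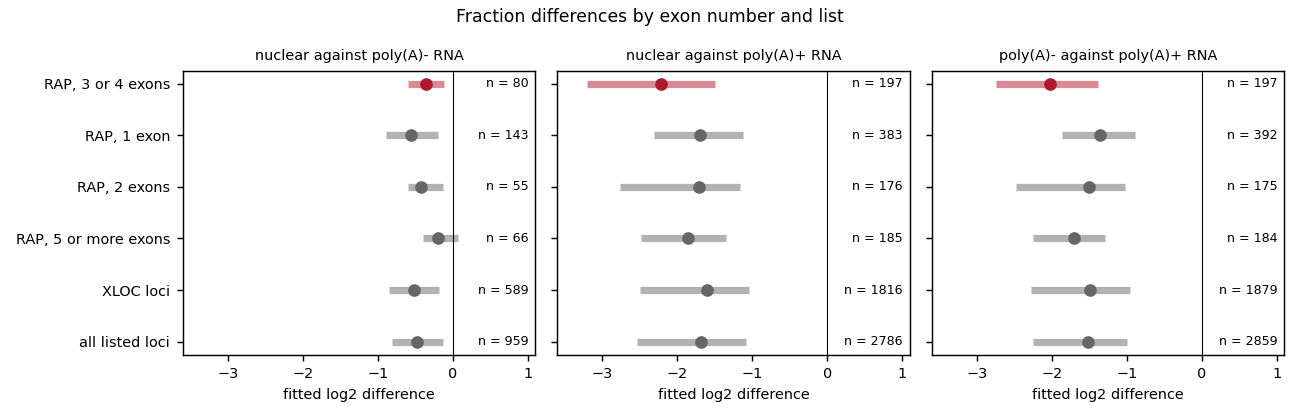
Fitted log2 differences between fractions for RAP lncRNAs with 3 or 4 exons (red) and for other lists (grey). Points are medians over the tested loci and bars span the quartiles, with the number tested at the right. The members lie at -2.02 for poly(A)- and -2.21 for nuclear against poly(A)+ RNA, left of the medians of the other lists in both panels.

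OS09G0568266 (chromosome 9, 22692731 to 22694212, minus strand, 3 exons, 404 nt) had the largest poly(A)+ excess. Its poly(A)- values were 0.526 FPKM in cold, 1.27 in drought, 0.789 in heat, 0.535 in high light, 0.667 in high salt, 0.499 in roots and 0.490 in untreated seedlings. Its poly(A)+ values in the same order were 27.8, 34, 25.2, 58.1, 5.36, 76.3 and 66.9 FPKM. The fractions did not overlap, and the fitted difference was -4.35 ± 0.42 (log2, SE, 7 conditions, limma adjusted p 1.13e-17).

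OS04G0667850 (chromosome 4, 34088389 to 34090279, plus strand, 4 exons, 467 nt) was among the most abundant members. Its poly(A)- level was between 0.885 FPKM in drought and 14.1 in high salt, against 34.1 FPKM in high salt to 168 in cold in poly(A)+ RNA, so the ranges did not overlap. The difference was -4.15 ± 0.48 (limma adjusted p 6.04e-14). OS01G0658450 (chromosome 1, 26781323 to 26784144, plus strand, 4 exons, 445 nt) held 1.14 to 7.33 FPKM in poly(A)- RNA, against 43.9 to 200.3 in poly(A)+ RNA. Its highest value in both fractions was in roots, and its difference was -4.08 ± 0.46 (limma adjusted p 3.60e-14).

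One member ran the other way. OS05G0152366 (chromosome 5, 3010794 to 3011863, minus strand, 3 exons, 947 nt) is listed by the authors as Poly(A)- and nucleus. Its poly(A)- values were 5.93 FPKM in cold, 0.419 in drought, 2.78 in heat, 9.62 in high light, 5.70 in high salt, 33.9 in roots and 0.876 in untreated seedlings. Its poly(A)+ values in the same order were 1.34, 0.179, 0.358, 0.772, 2.22, 0.602 and 1.23 FPKM, so untreated seedlings were the exception to a higher poly(A)- level. The difference was 1.59 ± 0.38 (limma adjusted p 6.12e-05, higher in 6 of 7 conditions). By condition it lay between -0.25 in untreated seedlings and 4.45 in roots, a variation that this SE and p understate. The other 2 members listed as Poly(A)-, OS05G0318901 and OS05G0457501, stayed below 0.5 FPKM in every undisputed long RNA column. Of the 11 members with a higher mean in poly(A)- RNA, OS05G0152366 was the only one whose poly(A)- mean reached 1 FPKM.

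OS05G0152366 was also the member with the widest range of nuclear levels. Nuclear RNA held 1.24 FPKM in cold, 1.87 in drought, 0.469 in heat, 2.67 in high light, 0.590 in high salt, 46.3 in leaves, 3.58 in roots and 1.25 in untreated seedlings. Leaves stood far above the other 7 conditions, and in leaves the poly(A)- value was 10.8 FPKM. It accounted for 20.3% of all reads of the members in the leaf nuclear library. Small RNA values were between 0.894 FPKM in leaves and 2.51 in roots, a narrower range than in any long fraction.

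**Figure D3:**
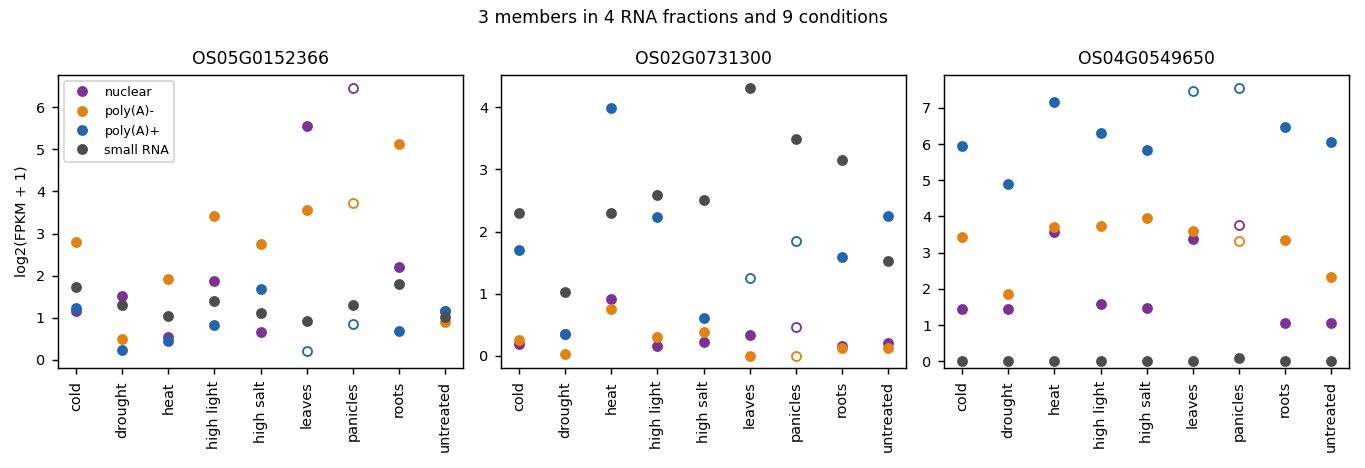
Levels of OS05G0152366, OS02G0731300 and OS04G0549650 as log2(FPKM + 1) in the 9 conditions, with nuclear (purple), poly(A)- (orange), poly(A)+ (blue) and small RNA (grey); open circles are disputed columns. Poly(A)- points lie above poly(A)+ points for the first locus in all undisputed conditions but untreated seedlings, small RNA leads the second outside heat and untreated seedlings among undisputed columns, and poly(A)+ points lead the third throughout.

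Nuclear against poly(A)+ RNA asked how much of each transcript is held in the nucleus. The nuclear RNA was total RNA and the whole-cell RNA was selected for tails, so location and tail cannot be told apart in this comparison. Of 303 members, 288 had a lower mean in nuclear than in poly(A)+ RNA and 10 a higher one. Of 197 tested, 172 were lower and 0 higher by limma, beside 79.2% lower and 1.26% higher over all 2786 loci tested. At an unadjusted p of 0.05, 0 members were higher as well. These 197 again met the filter in poly(A)+ columns alone, so lower nuclear levels among them are in part fixed by the filter. The median difference was -2.21 for the members and -1.69 for all loci. Set against each library's median, 66 members were lower and 7 higher, beside 19.2% and 10.3% of all loci. The difference had the same sign in all 7 conditions for 163 of the 172.

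OS01G0658450 had the largest difference in this comparison. Nuclear RNA held 0.459 FPKM in cold, 1.36 in drought, 2.43 in heat, 0.686 in high light, 0.968 in high salt, 2.30 in roots and 0.548 in untreated seedlings. Poly(A)+ RNA in the same order held 99.9, 65.3, 47.3, 87.3, 43.9, 200.3 and 100.8 FPKM. The ranges were far apart, and the difference was -5.28 ± 0.39 (limma adjusted p 5.54e-12).

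OS07G0574850 (chromosome 7, 23245049 to 23246186, minus strand, 3 exons, 497 nt) had 0.389 to 1.53 FPKM in nuclear RNA, against 12.9 to 119 in poly(A)+ RNA. Its difference was -5.10 ± 0.39 (limma adjusted p 8.71e-12). OS03G0234350 (chromosome 3, 7102654 to 7104625, plus strand, 3 exons, 376 nt) had 0.535 to 3.43 FPKM in nuclear RNA, against 24.2 to 165 in poly(A)+ RNA, and a difference of -5.08 ± 0.38 (limma adjusted p 7.38e-12). In both loci high salt gave the lowest poly(A)+ value.

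Nuclear against poly(A)- RNA was compared over 8 conditions, leaves included. The beads had removed tailed RNA from the poly(A)- fraction and not from the nuclear total RNA, so location and tail cannot be told apart here either. Of 303 members, 188 had a lower mean in nuclear RNA, 103 a higher one and 12 equal means. Of the 80 members that passed the filter, 8 were lower and 0 higher by limma, beside 16.8% lower and 0.938% higher over all 959 loci tested; at an unadjusted p of 0.05, 26 were lower and 0 higher. The count moved with the conditions used: it was 15 without leaves and 5 without high light, and relative to each library's median 3 were lower and 1 higher, beside 7.61% and 3.96% of all loci. The sign was the same in all 8 conditions for 2 of the 8 members, OS05G0116150 and OS04G0549650. The other 6 were OS02G0478650, OS03G0337850, OS06G0686700, OS07G0574850, OS10G0422050 and OS11G0147901, named after their values were seen.

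OS05G0116150 (chromosome 5, 877630 to 880196, plus strand, 4 exons, 476 nt) had nuclear values of 0.393 FPKM in cold, 0.254 in drought, 0.852 in heat, 0.264 in high light, 0.268 in high salt, 3.43 in leaves, 0.757 in roots and 0.171 in untreated seedlings. Its poly(A)- values in the same order were 4.11, 1.39, 4.06, 12.3, 8.58, 3.78, 2.86 and 1.33 FPKM. The fractions were closest in leaves, and the difference was -1.60 ± 0.35 (limma adjusted p 0.000179). OS04G0549650 had -1.38 ± 0.49 (limma adjusted p 0.0191), a call that did not hold without cold, without high light or without high salt. OS06G0686700 (chromosome 6, 28639437 to 28641587, minus strand, 3 exons, 1936 nt) had the largest fitted difference of the 8, -1.86 ± 0.40 (limma adjusted p 0.000105). Its nuclear values were 0.427 to 1.68 FPKM, against 0.589 FPKM in drought to 18.4 in high light in poly(A)- RNA.

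The leaf nuclear library stood apart for these loci by their share of all its reads. In it, the members took 0.0216% of the library's reads, against 0.00581% to 0.00806% in the other undisputed nuclear libraries. OS05G0152366 alone held 20.3% of the members' reads there. Of the reads of all listed loci, the members took 1.27% in nuclear leaves and 1.57% in nuclear roots, so leaves did not lead on that measure. Of the 303 members, 158 (52.1%) had a higher nuclear value in leaves than in each of the other 7 undisputed conditions, beside 34% of all listed loci. Among the 88 members detected in nuclear RNA, 64 were highest in leaves, and the same count over all detected loci is not given here. The part of the leaf nuclear library in the results was not tested beyond leaving it out.

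Across conditions, the poly(A)+ levels of the 225 detected members were highest in roots for 92, in heat for 48 and in high salt for 1. They were lowest in high salt for 115 and in drought for 91. Poly(A)+ levels of all loci compared also fell in these 2 stresses, with median differences of -1.02 in drought and -1.17 in high salt against untreated seedlings. The members took 0.278% of the poly(A)+ reads in roots and 0.0638% in high salt, against 0.189% in untreated seedlings. Among the 188 members with a poly(A)+ median of at least 1 FPKM, the highest value was 2.00 times the median at the middle member, and it was at least 5 times the median in 13. Of these 13, 9 were highest in roots. The counts of highest and lowest columns are not set beside the same counts over all listed loci, so they are not shown to be particular to the members.

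Stress against untreated seedlings was compared by size, with no test, as a difference of at least 2-fold on log2(FPKM + 1) with at least 1 FPKM in one of both columns. Within a fraction every stress was set against the same untreated column, so calls in several stresses are not independent. In poly(A)+ RNA, drought and high salt gave far more lower than higher members. In drought, 7 of 202 members were higher and 103 lower, beside 7.13% higher and 51.4% lower of all loci compared. In high salt, 1 of 201 was higher and 124 were lower, beside 4.2% higher and 61.4% lower of all loci. The median difference was -1.03 for the members and -1.02 for all loci in drought, and -1.23 and -1.17 in high salt, so these shifts were shared by the whole list. Relative to the median of all loci, 31 members stood higher in drought and 26 lower, beside 20.1% and 13.9% of all loci. In high salt 15 then stood higher and 26 lower, beside 11% and 11.9%.

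The other 3 stresses moved fewer members, and about as many up as down in heat and high light. In cold, 7 of 208 were higher and 16 lower, beside 6.06% higher and 15.2% lower of all loci; relative to the median of all loci these became 11 and 9, beside 8.74% and 11.5%. Heat had 22 of 211 higher and 24 lower, beside 12.6% and 16.1%, and after the same centring 25 and 22, beside 13.2% and 15.8%. For high light, 15 of 204 were higher and 17 lower, beside 6.35% and 18%, and centred 20 and 14, beside 9.67% and 12.9%.

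**Figure D4:**
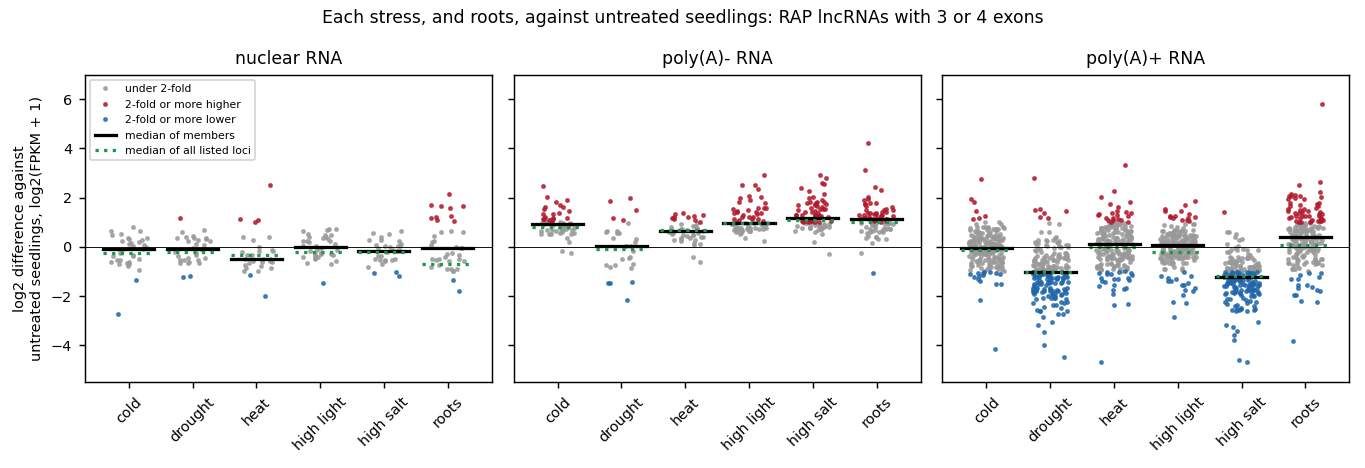
Log2 differences on the log2(FPKM + 1) scale of each stress, and of roots, against untreated seedlings for the RAP lncRNAs with 3 or 4 exons in nuclear, poly(A)- and poly(A)+ RNA. Each point is 1 member, red or blue where at least 2-fold higher or lower; black lines are the members' medians and green dotted lines the medians of all listed loci. In poly(A)+ RNA the medians lie at -1.03 in drought and -1.23 in high salt, and those of the other stresses lie near 0.

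Single members responded to 1 stress by a wide margin. OS06G0335950 (chromosome 6, 13383815 to 13385580, plus strand, 3 exons, 1729 nt) has no intron of 50 nt or more, so nearly its whole span is exon. Its count of 3 exons rests on those short gaps. Its poly(A)+ values were 0.0564 FPKM in cold, 0.0491 in drought, 9.43 in heat, 0.0343 in high light, 0.103 in high salt, 0.126 in roots and 0.0311 in untreated seedlings. Heat was the only high column. It rested on 1250 reads in heat (exact 95% Poisson interval 8.91 to 9.96 FPKM), against 4 reads in untreated seedlings (0.00846 to 0.0795 FPKM), and the difference was 3.34. Its heat value was 0 FPKM in nuclear and 0.0921 in poly(A)- RNA, so the gain was seen in poly(A)+ RNA alone of the long fractions.

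OS09G0452750 (chromosome 9, 16973779 to 16975191, minus strand, 3 exons, 359 nt) was the member with the largest gain in cold. Its poly(A)+ values were 11.2 FPKM in cold, 0.189 in drought, 0.327 in heat, 0.0551 in high light, 0.541 in high salt, 0.952 in roots and 0.785 in untreated seedlings. Cold was above the rest in poly(A)- RNA too, with 1.99 FPKM in cold, against 0.0345 in untreated seedlings. The poly(A)+ difference in cold was 2.77, with intervals of 10.2 to 12.4 FPKM in cold and 0.486 to 1.20 in untreated seedlings. OS02G0162700 (chromosome 2, 3362833 to 3364270, minus strand, 3 exons, 660 nt) followed with 24.3 FPKM in cold, against 5.49 in untreated seedlings, a difference of 1.96.

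OS07G0448150 (chromosome 7, 15359099 to 15360092, minus strand, 3 exons, 766 nt) had 28.2 FPKM in drought poly(A)+ RNA (interval 26.6 to 29.7), against 3.21 in untreated seedlings (2.76 to 3.71). The difference was 2.79, and roots, at 16.7 FPKM, were the other high column. Its poly(A)- value was 1.96 FPKM in drought, against 0.0485 in untreated seedlings.

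OS02G0717550 (chromosome 2, 29784735 to 29785883, minus strand, 3 exons, 712 nt) was the 1 member higher in high salt. It had 10.6 FPKM in cold, 16.5 in drought, 9.59 in heat, 10.3 in high light, 14.9 in high salt, 27.3 in roots and 5.03 in untreated seedlings, so untreated seedlings were its lowest column. The difference was 1.54 in drought and 1.40 in high salt. Its neighbour OS02G0717650 (29786724 to 29787716, plus strand) starts 841 nt away on the other strand and is also a member. That neighbour, named after its values were seen, had 2.16 FPKM in cold, 7.90 in drought, 2.72 in heat, 2.04 in high light, 1.51 in high salt, 29.2 in roots and 7.94 in untreated seedlings. Both were highest in roots. In cold, heat, high light and high salt the minus-strand locus was above its untreated value and the plus-strand locus below its own.

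In heat, OS08G0120550 (chromosome 8, 1123078 to 1125981, plus strand, 3 exons, 1027 nt) had 12.2 FPKM, against 1.73 in untreated seedlings, a difference of 2.27. It was also higher in drought, at 6.38 FPKM. OS03G0792050 (chromosome 3, 32930556 to 32935313, plus strand, 4 exons) was the 1 member at least 2-fold higher in 3 stresses as deposited; relative to the median of all loci, 5 members were higher in 3 stresses and 4 in 4. It had 7.01 FPKM in cold, 31.8 in drought, 38 in heat, 29.5 in high light, 18.1 in high salt and 11.7 in untreated seedlings. In high light, OS01G0673650 (chromosome 1, 27668620 to 27669424, plus strand, 3 exons, 458 nt) had 42.8 FPKM, against 11.2 in untreated seedlings, a difference of 1.85. OS01G0276033 (chromosome 1, 9658500 to 9661024, plus strand, 3 exons, 281 nt) had 21.2 FPKM in high light, against 5.92 in untreated seedlings. The span of this locus, introns included, overlaps that of OS01G0276066 on the opposite strand over 593 nt. Whether their exons overlap was not analysed here. The libraries were strand-specific per the labels, and whether reads were counted by strand is not stated in any source used here.

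**Figure D5:**
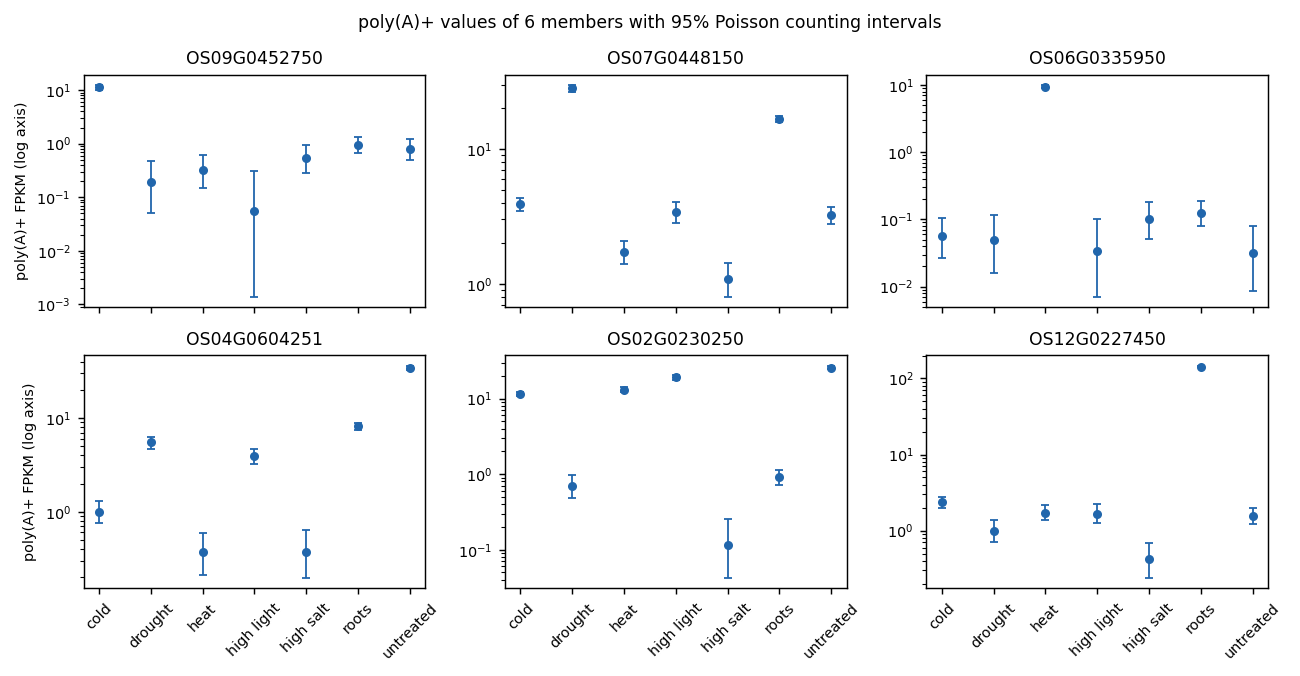
Poly(A)+ FPKM of 6 members in the 7 undisputed conditions on log axes, with exact 95% Poisson counting intervals. OS09G0452750 peaks in cold at 11.2 FPKM, OS07G0448150 in drought at 28.2, OS06G0335950 in heat at 9.43 and OS12G0227450 in roots at 143, while OS04G0604251 and OS02G0230250 are highest in untreated seedlings at 34.3 and 25.8.

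Loss in poly(A)+ RNA was widest for OS04G0604251 (chromosome 4, 30482502 to 30483293, plus strand, 3 exons, 566 nt). Its values were 1.0 FPKM in cold, 5.49 in drought, 0.369 in heat, 3.91 in high light, 0.371 in high salt, 8.19 in roots and 34.3 in untreated seedlings. No interval of another column reached that of untreated seedlings (32.6 to 36.1 FPKM), and the differences were -4.14, -2.44, -4.69, -2.85 and -4.69 in the 5 stresses in the order above. It was 1 of 4 members at least 2-fold lower in all 5 stresses, and the only one of them that stayed so in all 5 relative to the median of all loci. The 5 differences share 1 untreated column, so a high value there alone would lower all of them. How many of all loci were lower in all 5 stresses is not given here. The other 3 members lower in all 5 stresses were OS01G0242333, OS02G0572500 and OS11G0147901, named after their values were seen.

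OS05G0481250 (chromosome 5, 23660499 to 23661591, minus strand, 4 exons, 718 nt) had 0.213 FPKM in drought, from 9 reads, against 26 in untreated seedlings, from 1390 reads, a difference of -4.48. Its cold, heat and high light values were 30.6, 38.2 and 35.3 FPKM, and high salt was lower at 3.6. OS02G0230250 (chromosome 2, 7323912 to 7325155, plus strand, 3 exons, 833 nt) had 0.693 FPKM in drought and 0.116 in high salt, against 25.8 in untreated seedlings, and was also low in roots at 0.912. OS01G0646400 (chromosome 1, 26051924 to 26053759, plus strand, 3 exons, 523 nt) had 0.798 FPKM in heat and 0.945 in high light, against 8.34 in untreated seedlings. OS04G0497250 (chromosome 4, 24864344 to 24866466, plus strand, 3 exons, 1437 nt) had 1.94 FPKM in cold, against 12.1 in untreated seedlings, while its drought value was 19.1 and its root value 32.8.

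In poly(A)- RNA, more members were higher than lower in cold, heat, high light and high salt, and drought was nearly even. Cold had 21 of 63 members higher and 0 lower, beside 32.1% and 1.19% of all loci; relative to the median of all loci 4 were higher and 1 lower, beside 4.35% and 5.67%. Drought had 5 of 29 higher and 4 lower, beside 17.9% and 22.4%, and centred in this way 6 and 4, beside 21.1% and 20.9%. Heat had 10 of 43 higher and 0 lower, beside 25.2% and 1.66%, and centred 0 and 2, beside 4.14% and 6.79%. These counts show that the heat gain in poly(A)- RNA turned with the scaling. High light had 31 of 68 higher and 0 lower, beside 44.9% and 0.549%, and centred 7 and 0, beside 4.95% and 1.43%. High salt had 55 of 80 higher and 0 lower, beside 57% and 0.368%, and centred 7 and 1, beside 7% and 3.22%. The members' median differences lay between 0.05 in drought and 1.19 in high salt, and those of all loci between -0.11 and 1.08 for the same stresses. The untreated poly(A)- library, against which all are set, held few member reads, 0.00632% of the library, beside 0.0134% to 0.0269% in cold, heat, high light and high salt and 0.00498% in drought. In high salt, 34 members were lower in poly(A)+ and higher in poly(A)- RNA as deposited, but 1 was so relative to the medians of all loci. Of all loci compared, 61.4% were lower in poly(A)+ and 57% higher in poly(A)- RNA as deposited. The joint count over all loci is not given here, so the 34 are not shown to be particular to the members.

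In nuclear RNA, 30 to 36 members could be compared per stress. Cold had 0 of 35 members higher and 2 lower, beside 1.75% and 10.3% of all loci, and relative to the median of all loci 1 and 2, beside 4.38% and 5.69%. Drought had 1 of 31 higher and 2 lower, beside 3.92% and 8.5%, and centred 1 and 1, beside 7.84% and 4.14%. Heat had 4 of 30 higher and 2 lower, beside 15.6% and 14.7%, and centred 4 and 1, beside 21.3% and 5.26%. With so few members compared, 1 call moves these shares by several percentage points. High light had 0 of 36 higher and 1 lower, beside 2.04% and 5.9%, and centred the same counts, beside 4.54% and 3.17%. High salt had 0 of 31 higher and 3 lower, beside 2.4% and 7.63%, and centred 0 and 0, beside 5.66% and 3.05%.

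OS04G0549650 (chromosome 4, 27508882 to 27509736, minus strand, 3 exons, 593 nt) was the 1 member higher in a stress in all 3 long fractions. In heat it had 10.8 FPKM in nuclear, 12.1 in poly(A)- and 143 in poly(A)+ RNA, against 1.1, 4.05 and 65.9 FPKM in the same fractions of untreated seedlings. The differences were 2.49, 1.38 and 1.11, and the poly(A)- one came to 0.71 relative to the median of all loci. Heat was the highest undisputed nuclear column of this locus, with leaves next at 9.31 FPKM.

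Lower in all 3 long fractions in drought were OS02G0572500 (chromosome 2, 21931067 to 21932526, plus strand, 3 exons, 616 nt) and OS02G0580366 (chromosome 2, 22335323 to 22336980, minus strand, 4 exons, 750 nt). OS02G0572500 had 6.83, 0.295 and 6.17 FPKM in nuclear, poly(A)- and poly(A)+ RNA in drought, against 16.8, 2.59 and 58.8 in untreated seedlings. OS02G0580366 had 1.42, 0.903 and 14.5 FPKM in drought, against 4.66, 4.18 and 65.6 in untreated seedlings. Relative to the median of all loci, OS02G0580366 still passed in all 3 fractions, while the nuclear difference of OS02G0572500 came to -0.97. The nuclear level of OS02G0572500 in untreated seedlings, 16.8 FPKM, was the highest of any member in that library and 12.8% of the members' reads there.

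Roots against untreated seedlings gave the most members higher in poly(A)+ RNA. Of 216 compared, 51 were higher and 17 lower, which is 23.6% and 7.87%, beside 15.7% and 18.2% of all loci. Relative to the median of all loci, 43 were higher and 18 lower, beside 13.3% and 19.9%. The members' median was 0.40, against 0.08 for all loci. Among members of 3 exons 26.4% were higher, and among those of 4 exons 17.6%. In the other RAP lncRNAs the share was 13.7% with 1 exon, 20.9% with 2 and 15.4% with 5 or more. Whether these shares differ beyond chance was not tested.

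In nuclear RNA, 10 of 39 members were higher in roots and 2 lower, beside 9.85% higher and 31.5% lower of all loci. The medians were -0.06 for the members and -0.69 for all loci, and relative to the median of all loci 14 members were higher and 1 lower, beside 19.7% and 7.22% of all loci. In poly(A)- RNA, 47 of 84 were higher and 1 lower, beside 49.6% and 11.8% of all loci, and relative to the median of all loci 5 and 2, beside 10.4% and 17.3%. Of the 51 members higher in roots in poly(A)+ RNA, 23 were also higher in poly(A)- and 6 in nuclear RNA, and those 6 were higher in all 3 fractions. They were OS02G0717650, OS03G0234350, OS03G0792050, OS04G0497250, OS11G0147901 and OS12G0227450, named after their values were seen. Relative to the median of all loci, OS02G0717650, OS11G0147901 and OS12G0227450 passed in all 3. Of the 43 members then higher in poly(A)+ RNA, 4 were also higher in poly(A)- and 6 in nuclear RNA. The same overlaps over all loci are not given here, so these counts are not shown to be particular to the members.

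OS12G0227450 (chromosome 12, 6936127 to 6936926, minus strand, 3 exons, 610 nt) was nearly confined to roots. Its poly(A)+ values were 2.37 FPKM in cold, 1.0 in drought, 1.73 in heat, 1.68 in high light, 0.424 in high salt, 143 in roots and 1.58 in untreated seedlings. The root value rested on 9164 reads (interval 140 to 146 FPKM), against 72 reads in untreated seedlings (1.24 to 2.00 FPKM), and the difference was 5.80. Roots were also the only high column in nuclear RNA, at 3.48 FPKM, and in poly(A)- RNA, at 7.60 FPKM; untreated seedlings were listed at 0 in both. The authors' location class of this locus is nucleus, while its nuclear root value was below its poly(A)+ one.

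OS11G0147901 (chromosome 11, 2204698 to 2207570, plus strand, 4 exons, 680 nt) reached the highest FPKM of any member, 363 in root poly(A)+ RNA, 8.89% of the members' reads in that library. Its other poly(A)+ values were 62.3 in cold, 16.8 in drought, 37.6 in heat, 48.1 in high light, 9.73 in high salt and 129 in untreated seedlings. Roots stood highest and high salt lowest. In nuclear and poly(A)- RNA it had 3.07 and 14.9 FPKM in roots, against 0.299 and 1.95 in untreated seedlings.

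OS03G0792050, described above for drought, heat and high light, had 77.2 FPKM in roots, against 11.7 in untreated seedlings, a difference of 2.63. Lower in roots were OS02G0230250, at a difference of -3.81, and OS02G0120700 (chromosome 2, 1078754 to 1079385, minus strand, 3 exons, 391 nt). OS02G0120700 had 1.29 FPKM in roots, against 9.68 in untreated seedlings, and its values in the 5 stresses were 4.51 to 13.3 FPKM.

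OS03G0710850 (chromosome 3, 28665458 to 28667348, minus strand, 4 exons, 718 nt) was among the most abundant members in all 3 long fractions. In poly(A)+ RNA it had 123 FPKM in cold, 131 in drought, 58.7 in heat, 129 in high light, 48.7 in high salt, 143 in roots and 108 in untreated seedlings. High salt was at least 2-fold lower than untreated seedlings, with a difference of -1.13. The locus was the most abundant member by reads in cold, drought and high light poly(A)+ RNA. Its undisputed nuclear values were 2.83 to 5.50 FPKM and its poly(A)- values 3.06 to 21.8 FPKM, the highest in high salt.

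Small RNA reads were rare in these loci. Of the 303 members, 5 reached 1 FPKM in a small RNA library, and between 186 and 228 were listed at 0 in each. FPKM divides by the whole exon length, so reads from a short stretch give a low value. The members took 0.00102% to 0.00487% of the small RNA reads.

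OS02G0731300 (chromosome 2, 30459391 to 30464135, minus strand, 3 exons, 1845 nt) held the largest share of those reads in every library, 15.7% to 71.2%. Its small RNA values were 3.94 FPKM in cold, 1.05 in drought, 3.92 in heat, 5.0 in high light, 4.70 in high salt, 18.8 in leaves, 10.2 in panicles, 7.84 in roots and 1.87 in untreated seedlings. The columns headed leaf, panicle and root stood above the other 6. The title of the leaf small RNA library calls it seedling while its tissue label says leaves, so that library's origin is in doubt. The leaf value rested on 2503 reads (interval 18.1 to 19.6 FPKM) and the untreated value on 137 (1.57 to 2.21 FPKM). In poly(A)+ RNA the same locus was highest in heat, at 14.9 FPKM, against 3.75 in untreated seedlings, a difference of 1.75. Its nuclear and poly(A)- values stayed below 1 FPKM in all undisputed columns.

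OS05G0105550 (chromosome 5, 301689 to 303708, minus strand, 3 exons, 491 nt) had small RNA values of 0.787 FPKM in cold, 0.261 in drought, 2.48 in heat, 0.044 in high light, 5.99 in high salt, 0.791 in leaves, 1.15 in panicles, 0.250 in roots and 2.98 in untreated seedlings. High salt was its highest and high light its lowest column. Its poly(A)+ values did not share that order, with 6.64 FPKM in high light, 2.87 in high salt and 6.67 in untreated seedlings. The remaining members at 1 FPKM in small RNA were OS05G0152366, OS03G0393801 and OS02G0825166. OS03G0393801 and OS02G0825166, named after their values were seen, reached 1.39 and 1.43 FPKM in untreated seedlings and stayed below 1 FPKM elsewhere. OS02G0825166 was at or below 0.0349 FPKM in every undisputed long RNA column.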

How the data were processed

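The authors deposited FPKM values for 2 lists of lncRNAs, an annotated list and a list of assembled XLOC loci, with coordinates, exons and classes, per the file headers. Per the labels' protocols, ribosomal RNA was depleted, oligo(dT) beads parted poly(A)- from poly(A)+ RNA, and dUTP marked the strand in each library. IRGSP-1.0, DESeq2 and TopHat2 appear in the submitters' processing notes without role or version, and no source used here gives the read counter. A length adds up end minus start for each deposited exon.

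Members and gene lists were chosen with earlier results of these data known. Where several transcripts were listed, the longest was kept. Depth came from the FPKM steps: 100% of 6076 member values of up to 200 reads were whole reads within 0.05. Poisson intervals (95%) and the 3-read limit of a listed 0 cover counting error only. FPKM values are not counts, so no count test was run.

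Fractions were compared with limma 3.58.1 (R 4.3.3; condition block, trended prior) on log2(FPKM + 1) over all loci with at least 1 FPKM in at least 3 tested libraries, at a Benjamini-Hochberg adjusted p of 0.05 and 2-fold; errors are SE. That scale understates the change of low loci. The SE and p-values draw largely on the variance of other loci of like level. The test was checked on simulated data in which loci of like level shared a spread. That check could not show false calls at loci with a wider spread of their own. The design had named 9 conditions; 7, or 8 without poly(A)+ RNA, were used because of the 4 disputed columns. Stresses and roots were compared by size (Python 3.11.15, pandas 2.3.3). Named members were the most changed per comparison, the most abundant per fraction, those passing in all 3 long fractions of a stress, and the longest and shortest; any other is marked. No identifier matched the RefSeq table.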

Additional observations from a re-analysis of the deposited data

Results flagged for a closer look

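In 27 checks for a library far from the others, 2 stood out, both in nuclear against poly(A)+ RNA; chance gives such a result in about 1 of 20 checks. OS07G0574850 had a log2 difference of -3.00 in high salt, against -5.75 to -5.06 in the other 6 conditions. OS09G0568266 had -2.36 in high salt, against -5.82 to -4.34. High salt was the lowest poly(A)+ column of both loci, at 12.9 and 5.36 FPKM.

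For 2 loci a condition moved opposite ways in 2 fractions, both as deposited and relative to the median of all loci; with 1 column per group, this difference was not tested. In heat, OS01G0658450 was higher in nuclear RNA by 1.15 and had -1.08 in poly(A)+ RNA. Its untreated nuclear value rested on 6 reads (0.548 FPKM, interval 0.201 to 1.19), against 56 reads in heat (2.43 FPKM, interval 1.84 to 3.16). In high salt, OS07G0574850 was higher in poly(A)- RNA by 2.82 and had -2.54 in poly(A)+ RNA. Explanations were not tested.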

How the results depend on the processing

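Of the member counts and detection counts recomputed under other settings, 71 stayed within 1.5 times and 48 did not; of the single-locus differences, 321 kept their call, 10 lost it, 9 gained it and none reversed. Leaving out 1 condition at a time gave 167 to 182 members called for poly(A)- against poly(A)+ RNA, 167 to 183 for nuclear against poly(A)+ RNA and 5 to 15 for nuclear against poly(A)- RNA. Centring each library on its median left 59, 73 and 4 in the same order. For nuclear against poly(A)- RNA, where 8 were called, a pseudocount of 0.1 FPKM gave 14, no filter on low values 0, and all 9 conditions as headed 1; the cause was not tested. Relative to the median difference, the counts past the size rule were 57 in drought and 41 in high salt in poly(A)+ RNA; 5 in cold, 2 in heat, 7 in high light, 8 in high salt and 7 in roots in poly(A)- RNA; and 0 in high salt in nuclear RNA. With a pseudocount of 0.1 FPKM they were 43 in cold in poly(A)+ RNA. In poly(A)- RNA they were then 55 in cold, 19 in drought, 25 in heat, 65 in high light and 75 in roots, and in nuclear RNA 12, 10, 16 and 8 in the first 4 stresses, 9 in high salt and 24 in roots. At 4-fold, cold, drought, heat, high light, high salt and roots gave 3, 28, 6, 3, 30 and 13 in poly(A)+ RNA, 2, 1, 0, 6, 8 and 5 in poly(A)- RNA, and 1, 0, 2, 0, 0 and 1 in nuclear RNA. At 0.5 FPKM, 145 members were detected in nuclear and 12 in small RNA. Leaving out drought and high salt together was chosen after seeing the data. The fraction comparisons were paired by condition, and without that block 169, 172 and 8 members were called. For the stress and root comparisons no paired analysis was possible because each group is 1 column. Values that rest on few reads have wide counting intervals, and single columns leave stress and root differences without replicate error.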
